A study of Homo sapiens with 6 samples.

Results

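The genes described are 10 transcription factors and cofactors that set B cell identity: PAX5, EBF1, BCL6, IRF4, IRF8, SPIB, PRDM1, POU2AF1, BACH2 and IKZF3. They were chosen by name, with earlier results of these data known. All 10 had at least 1 probe set assigned to that gene alone on the array, 34 probe sets in all. They are 10 of 18244 genes with such a probe set and 10 of the 12198 genes that were tested. Each gene was represented by its brightest probe set over the 6 arrays, and its other probe sets were used as a check. The cells were P493-6, 1 human B cell line, which the labels call B-cell lymphoma and which is known as a line immortalised with Epstein-Barr virus. All groups carried a c-Myc transgene that tetracycline represses, including the controls. Low-Myc cells were taken at 0 h, mid-Myc cells 1 h and high-Myc cells 24 h after the transgene was released, with 2 Affymetrix arrays a group described as biological duplicates. One field of the mid-Myc labels gives 0 h where another gives 1 h. Myc level and time after release run together here and cannot be told apart. Synthetic ERCC RNAs had been added in proportion to the number of cells.

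B cells are specified and then kept as B cells by a small network of factors. EBF1 and PAX5 open and hold the B cell programme, helped by POU2AF1, SPIB, IRF8 and the Ikaros family member IKZF3. BCL6 and BACH2 hold back the plasma cell programme in germinal centre B cells, while IRF4 and PRDM1, which encodes Blimp-1, drive it. PRDM1 and the pair of BCL6 and BACH2 repress one another, so the balance between them is commonly read as the position of a B cell between these states.

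Each difference is given on 2 scales. The equal-median scale sets the median human probe set of every array to the same value, so a gene is compared with the rest of the RNA. On the per-cell scale a curve fitted on each array to its 100 ERCC probe sets was subtracted, so a gene is compared with an RNA added per cell. Differences are in log2 units, the error is the standard error (SE), and a gene was called higher or lower when limma's adjusted p over all 12198 genes was under 0.05. The labels do not say whether the duplicates were separate cultures, so these p-values measure the spread between the arrays deposited.

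Promoter sequences are shown for the 4 genes in which a searched motif lay in the 250 bases before a start site, because these genes include the strongest early riser, BCL6, and 2 of the genes that stood lowest at 24 h, EBF1 and BACH2. The RefSeq table for GRCh38.p14 held 11 promoters for 8 of the 10 genes, and POU2AF1 and IKZF3 had no entry. The last 100 bases before the start site are printed 5′ to 3′ along the gene's strand, with the motif in capitals. They lie at chr5:159097957-159098056 (minus strand) for EBF1, chr3:187736502-187736601 (minus strand) for BCL6, chr6:106098841-106098940 (plus strand) for PRDM1 and chr6:90296844-90296943 (minus strand) for BACH2. The BCL6 and PRDM1 sequences each belong to 1 of 2 RefSeq promoters of the gene.
EBF1: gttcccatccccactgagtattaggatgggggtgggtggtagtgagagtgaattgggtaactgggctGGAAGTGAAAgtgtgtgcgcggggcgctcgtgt
BCL6: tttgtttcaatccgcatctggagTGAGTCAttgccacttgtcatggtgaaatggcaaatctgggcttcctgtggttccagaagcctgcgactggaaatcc
PRDM1: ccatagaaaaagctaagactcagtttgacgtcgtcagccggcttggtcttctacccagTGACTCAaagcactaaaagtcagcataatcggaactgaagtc
BACH2: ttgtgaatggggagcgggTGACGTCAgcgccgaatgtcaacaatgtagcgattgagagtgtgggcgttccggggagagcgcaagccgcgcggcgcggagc
In EBF1 the capitals mark an ETS-IRF composite element, GGAA and GAAA with 2 bases between, the form of site that SPIB binds together with IRF4 or IRF8. It began 33 bases before the start site, and 2.41% of all 35116 promoters held such an element in the same window. In BCL6 and PRDM1 the capitals mark an AP-1 site, TGANTCA, which began 77 and 42 bases before the start site and occurred in 6.57% of all promoters. In BACH2 they mark a cyclic AMP response element, TGACGTCA, 82 bases before the start site, found in 1.65% of all promoters. The E-box CACGTG, the letters that Myc and its partner Max bind, was in none of the 11 promoters and in 6.34% of all promoters. The other motifs searched on both strands were in none of the 11 either: the octamer ATGCAAAT (1.63% of all promoters), an EBF site of TCCC and GGGA with 2 bases between (1.06%), and an interferon response core of GAAA repeated after 2 bases (3.02%). The composite and the interferon core can overlap where the GAAA that ends the composite begins the core. A match of letters is a description of the sequence and not a measured site.

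The 10 genes are described in 2 steps, which not all of them shared. At 1 h none was called lower on either scale, and BCL6, IRF4 and PRDM1 were raised most. PAX5, BACH2 and IKZF3 were not called at 1 h on the equal-median scale. Between 1 h and 24 h every gene but PAX5 was called lower on the equal-median scale, and EBF1, POU2AF1 and BACH2 ended at under 0.5 of their low-Myc level relative to the rest of the RNA. Per cell, 4 were called higher and 4 lower between these times, beside 81.8% and 6.48% of all tested genes. Counted per cell at 24 h against low-Myc cells, POU2AF1 was lower, EBF1 and BACH2 were not called different, and the other 7 were higher. EBF1 and BACH2 were both called lower when each array was given 1 ERCC factor in place of the curve. Among the 7 called higher, BCL6 (0.18) and PRDM1 (0.20) were no longer called with the second brightest probe set. SPIB (0.19) was no longer called with 1 ERCC factor per array.

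On the equal-median scale, 7 of the 10 genes were called higher and 0 lower in mid-Myc against low-Myc cells, where 25.7% of all tested genes were called higher and 3.39% lower. In high-Myc against low-Myc cells 1 was called higher and 5 lower, against 37.7% and 26.0% of all tested genes. In high-Myc against mid-Myc cells 0 were called higher and 9 lower, against 33.3% and 30.9%. The median difference of the 10 genes was 0.28 at 1 h and -0.36 at 24 h against low-Myc cells, and -0.81 between these times. Over all tested genes it was 0.09, 0.05 and 0.02.

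On the per-cell scale all 10 were called higher in mid-Myc against low-Myc cells, where 62.7% of all tested genes were called higher and 0.672% lower. In high-Myc against low-Myc cells 7 were called higher and 1 lower, beside 91.0% and 2.47% of all tested genes. In high-Myc against mid-Myc cells 4 were called higher and 4 lower, beside 81.8% and 6.48%. Their medians were 0.47, 0.60 and 0.04 in these 3 comparisons, and those of all tested genes were 0.30, 0.98 and 0.72. The 2 later comparisons share the high-Myc arrays and the 2 against 0 h share the low-Myc arrays, so their counts are not independent of each other. The mid-Myc arrays enter 1 h against 0 h and 24 h against 1 h with opposite sign. A shift of these arrays alone would therefore read as a rise and then a fall. The mid-Myc samples are numbered apart from the low-Myc and high-Myc samples in the series. If they were processed apart, that could not be told apart from a difference at 1 h. In bulk RNA, fewer cells of a type and less RNA per cell cannot be told apart.

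**Figure D1:**
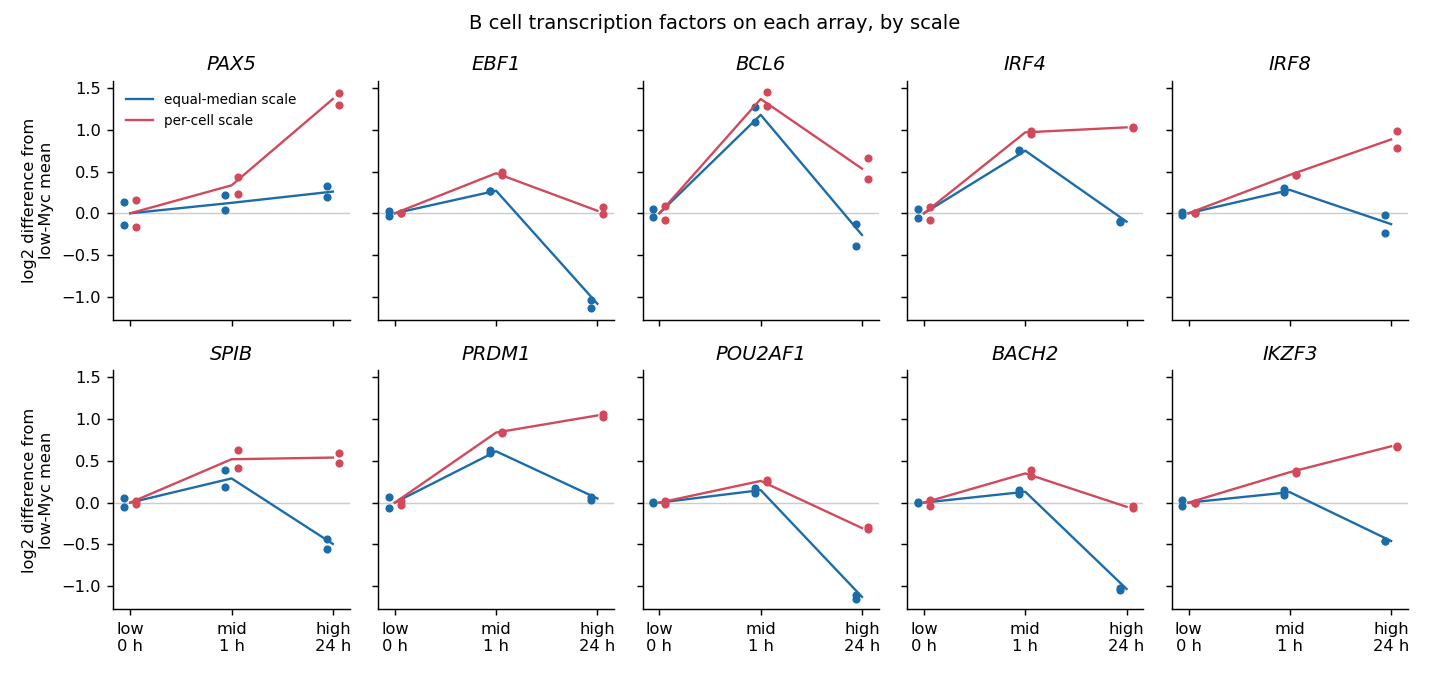
Level of each of the 10 genes on each array, as a log2 difference from the low-Myc mean (vertical axis), by group along the horizontal axis, which is not to scale in time. Points are the 2 arrays of a group, lines join the group means, blue is the equal-median scale and red the per-cell scale; BCL6, IRF4 and PRDM1 stand highest at 1 h on the equal-median scale, and EBF1, POU2AF1 and BACH2 lowest at 24 h.

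The choice of scale shifted all genes, so small differences depend on it. The ERCC probe sets above the intensity filter had median log2 differences of -1.25 at 24 h and -0.34 at 1 h against 0 h in the values as deposited. Centring each array on the tested genes in place of all human probe sets moved the median of all tested genes from 0.05 to -0.15 at 24 h and from 0.09 to -0.02 at 1 h. The share of called genes that were higher then fell from 59.2% to 41.5% at 24 h and from 88.3% to 58.6% at 1 h. It was 47.2% and 44.4% after quantile normalisation, and 46.9% and 43.2% on the values as deposited. MYC itself, by its own probe set, differed by 0.96 per cell and 0.34 at equal median in high-Myc cells, and by 0.13 and 0.09 in mid-Myc cells. With 2 arrays against 2, an exact permutation test of a single gene cannot give a p below 0.333.

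EBF1, the pioneer factor that opens chromatin at B cell genes, was measured at 1116 and 1083 in low-Myc, 1206 and 1177 in mid-Myc and 459 and 480.4 in high-Myc arrays, in deposited intensity. The 2 high-Myc arrays lay far below the other 4, and no group overlapped another. At equal median EBF1 was 2.13-fold lower at 24 h than at 0 h (log2 -1.09, SE 0.056, adjusted p = 7.29e-10). It was called higher at 1 h (0.27, SE 0.056, adjusted p = 0.00298), but not on the values as deposited or after quantile normalisation. Per cell it rose by 0.48 at 1 h and then fell by 0.45 between 1 h and 24 h to a level 0.03 above low-Myc cells (SE 0.045, adjusted p = 0.568). That last value became -0.40 and was called lower with 1 ERCC factor per array, and became 0.26 and was called higher with the second brightest probe set. Both other EBF1 probe sets lay in the same directions at equal median, at -0.88 and -1.07 for 24 h against 0 h.

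PAX5, which commits cells to the B lineage and represses genes of other lineages, was the only 1 of the 10 that no comparison called lower on either scale, going by its brightest probe set. Its intensities were 753 and 918 in low-Myc, 875 and 759 in mid-Myc and 866 and 939 in high-Myc arrays, and on this scale the groups overlapped. At equal median it was 0.26 higher at 24 h than at 0 h (SE 0.086, adjusted p = 0.0182). That call was lost without the first low-Myc array (0.12, adjusted p = 0.26), without the second high-Myc array (0.19, adjusted p = 0.119), after quantile normalisation and with arrays centred on the tested genes (0.05 each), and on the values as deposited (0.12). It turned in sign with the second brightest PAX5 probe set, which gave -0.43 and a call of lower (adjusted p = 0.0104), and only 3 of the 7 others above the filter had the sign of the brightest. The brightest was also far apart in level, at a mean intensity of 848 against 89.2 for the next. Per cell PAX5 was higher by 1.37 at 24 h (SE 0.10, adjusted p = 5.17e-07) and by 0.34 at 1 h (adjusted p = 0.0172). The call at 1 h was lost without the first low-Myc array (0.17) and without the first mid-Myc array (0.23). It was also lost with the mean of the PAX5 probe sets (0.10), with the second brightest (0.07) and in a fit without a variance trend (adjusted p = 0.0686).

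POU2AF1 (OBF-1), the B cell coactivator of the octamer factors, was the brightest of the 10. It was measured at 4949 and 5053 in low-Myc, 4979.9 and 5059 in mid-Myc and 2062 and 2088 in high-Myc arrays. Both high-Myc arrays were under 0.5 of all others, and low-Myc and mid-Myc arrays overlapped. At equal median it was 2.19-fold lower at 24 h than at 0 h (-1.13, SE 0.039, adjusted p = 2.21e-11), and 2.8% of tested genes lay lower. POU2AF1 was the only 1 of the 10 called lower at 24 h against 0 h per cell as well (-0.30, SE 0.031, adjusted p = 6.98e-06). The 9 ERCC probe sets nearest to it in brightness lay at a median of -0.15 after the curve was subtracted, between -0.23 and -0.03. At 1 h it was called higher by 0.16 at equal median (adjusted p = 0.00971), which became -0.08 after quantile normalisation and was no longer called without the first low-Myc array (0.15) or the second mid-Myc array (0.13). The gene has 1 probe set, so no second one could be set beside it.

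IKZF3, which encodes Aiolos of the Ikaros family of zinc finger repressors, was measured at 343 and 331 in low-Myc, 328 and 334 in mid-Myc and 223 and 222 in high-Myc arrays. The high-Myc arrays were lowest, and the other groups overlapped. At equal median it was lower at 24 h than at 0 h (log2 -0.46, SE 0.067, adjusted p = 3.12e-05) and per cell higher by 0.67 (adjusted p = 7.83e-07). Its second probe set had the same sign in both equal-median comparisons with 0 h.

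IRF8, an interferon regulatory factor of B and myeloid cells, had intensities of 1602 and 1579 at 0 h, 1735 and 1745 at 1 h and 1234 and 1405 at 24 h. All groups were separate, but the high-Myc arrays were further from each other than those of the other groups. At equal median it was called higher at 1 h (0.28, SE 0.062, adjusted p = 0.0043). It no longer passed in a fit without a variance trend (adjusted p = 0.0586), after quantile normalisation (0.07), with arrays centred on the tested genes (0.17) and in the deposited values (0.13). The difference of -0.13 at 24 h against 0 h did not pass (adjusted p = 0.0771), although it was called lower without the second high-Myc array (-0.24, adjusted p = 0.0037). Against 1 h it was lower at 24 h (log2 -0.41, adjusted p = 4.36e-05), and per cell higher by 0.43. Both other probe sets had the same signs.

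SPIB, an ETS factor that pairs with IRF4 and IRF8, was dimmer, at 158 and 148 in low-Myc, 183 and 155 in mid-Myc and 103 and 94.0 in high-Myc arrays. Only the high-Myc arrays stood apart from the rest. At equal median it was lower at 24 h (log2 -0.50, SE 0.092, adjusted p = 0.000288) and called higher at 1 h by 0.29 (adjusted p = 0.0311). The call at 1 h was lost without either low-Myc array (0.35 and 0.23) and without the first mid-Myc array (0.19). Per cell it was higher by 0.54 at 24 h and by 0.52 at 1 h, with 0.02 between these times (SE 0.092, adjusted p = 0.85). With 1 ERCC factor per array the per-cell call at 24 h was lost (0.19). It has 1 probe set.

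IRF4, which is needed both for germinal centre formation and, at higher levels, for plasma cells, showed a sharp early rise. Its intensities were 583 and 636 in low-Myc, 929 and 912 in mid-Myc and 521 and 507.5 in high-Myc arrays. The mid-Myc arrays were highest and no group overlapped another. At equal median IRF4 was 1.68-fold higher at 1 h (0.75, SE 0.059, adjusted p = 1.89e-06), and 99.0% of tested genes had a smaller difference. At 24 h the difference from 0 h did not pass (log2 -0.10, SE 0.059, adjusted p = 0.14). Per cell it was higher by 0.97 at 1 h and 1.03 at 24 h, and the step between them, 0.06, did not pass (SE 0.058, adjusted p = 0.356). That step was called lower with the mean of the IRF4 probe sets (-0.17) and with 1 ERCC factor per array (-0.29).

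BCL6, the repressor that defines the germinal centre B cell, was the dimmest of the 10 and had the largest early difference. It was measured at 46.9 and 50.9 in low-Myc, 95.0 and 104.9 in mid-Myc and 34.1 and 40.1 in high-Myc arrays. The mid-Myc arrays were highest and the high-Myc arrays lowest, with no overlap, and the lowest values were close to the filter of 33.8. At equal median BCL6 was 2.27-fold higher at 1 h (1.18, SE 0.13, adjusted p = 3.15e-05), and 99.8% of tested genes had a smaller difference. At 24 h the difference from 0 h did not pass (log2 -0.26, SE 0.13, adjusted p = 0.0939), and it was called lower there without the second high-Myc array (-0.39, adjusted p = 0.03). Per cell it was higher by 1.37 at 1 h and by 0.53 at 24 h (adjusted p = 0.00352). With the second brightest probe set these became 0.36 and 0.18 and were not called. At equal median the second brightest probe set gave 0.22 at 1 h and was not called (adjusted p = 0.394). Of all 4 other probe sets, 3 had the sign of the brightest at 1 h. The dimmest, below the filter, read 18.9 and 28.3, then 38.8 and 53.7, then 13.9 and 14.0. Another below the filter went the other way at 1 h (-0.26), at 40 and 33.7, then 26.9 and 28.5, then 20.4 and 10.3.

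BACH2, which delays plasma cell differentiation by repressing PRDM1, had intensities of 136 and 137 at 0 h, 139 and 131 at 1 h and 61.4 and 59.8 at 24 h. The high-Myc arrays were under 0.5 of the others, and the 0 h and 1 h arrays overlapped. At equal median it was 2.05-fold lower at 24 h than at 0 h (-1.03, SE 0.084, adjusted p = 9.33e-08), and it did not pass at 1 h (0.13, adjusted p = 0.28). Per cell it was higher by 0.35 at 1 h (adjusted p = 0.00375), lower (log2 -0.41) between 1 h and 24 h, and not called between 0 h and 24 h (-0.05, SE 0.081, adjusted p = 0.546). That last value became -0.35 and was called lower with 1 ERCC factor per array. Its other probe set was below the filter.

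PRDM1, the master repressor of the plasma cell switch, was measured at 105 and 97.0 in low-Myc, 139.3 and 139.6 in mid-Myc and 96.7 and 93.0 in high-Myc arrays. The mid-Myc arrays stood above all others. At equal median PRDM1 was 1.53-fold higher at 1 h (0.62, SE 0.086, adjusted p = 0.000201), where 98.2% of tested genes had a smaller difference, and all 3 of its other probe sets above the filter were higher too. At 24 h the brightest probe set gave 0.05 (adjusted p = 0.651), but the 3 others gave -0.75, -0.38 and -0.57, so the direction at 24 h depends on the probe set. The second brightest read 102 and 103, then 126 and 130.2, then 61.6 and 49.5. Per cell the brightest was higher by 0.84 at 1 h and 1.04 at 24 h. The 3 others above the filter gave 0.20, 0.43 and 0.07 per cell at 24 h, and the second brightest was not called (adjusted p = 0.101). The per-cell step of the brightest between 1 h and 24 h, 0.20, was called (adjusted p = 0.0309). It was not called when either mid-Myc array or either high-Myc array was left out (0.18 to 0.22).

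EBF1, POU2AF1, BACH2, SPIB and IKZF3 were called lower at 24 h than at 0 h at equal median under every alternative setting run for them, 16 for BACH2 and 17 for each other. Not all of these settings could move a value. For SPIB and POU2AF1, with 1 probe set each, the settings for other probe sets reused that probe set. Leaving out an array of a group outside the comparison could change only the SE and p. IRF4 (16 of 16) and PRDM1 (17 of 17) were called higher at 1 h under every setting. BCL6 was called in all but the second brightest probe set. The calls at 1 h for EBF1, IRF8, SPIB and POU2AF1 were not kept under every scaling. At 24 h IRF4, IRF8 and BCL6, not called at equal median, were called lower with arrays centred on the tested genes and on the deposited values.

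**Figure D2:**
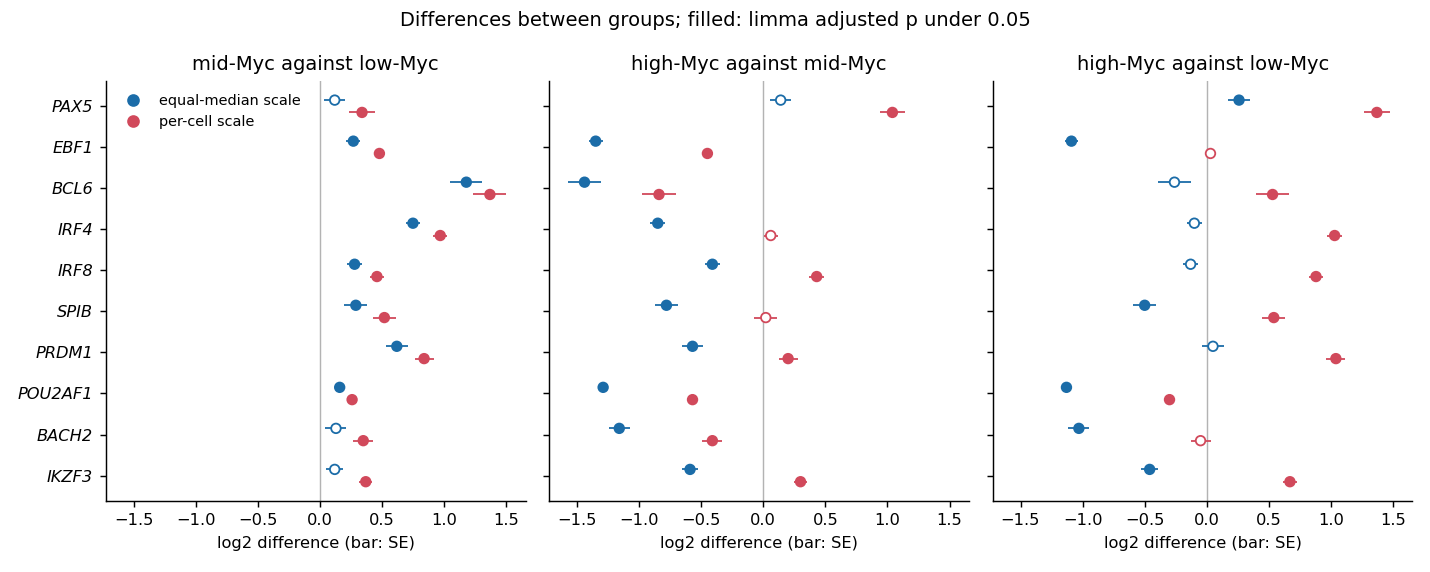
Log2 difference of each of the 10 genes (horizontal axis) in the 3 comparisons, with bars of 1 SE; blue is the equal-median scale, red the per-cell scale, and filled points have a limma adjusted p under 0.05. At equal median 9 of 10 genes were lower in high-Myc than in mid-Myc cells, and per cell EBF1 and BACH2 lay near 0 in high-Myc against low-Myc cells.

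**Figure D3:**
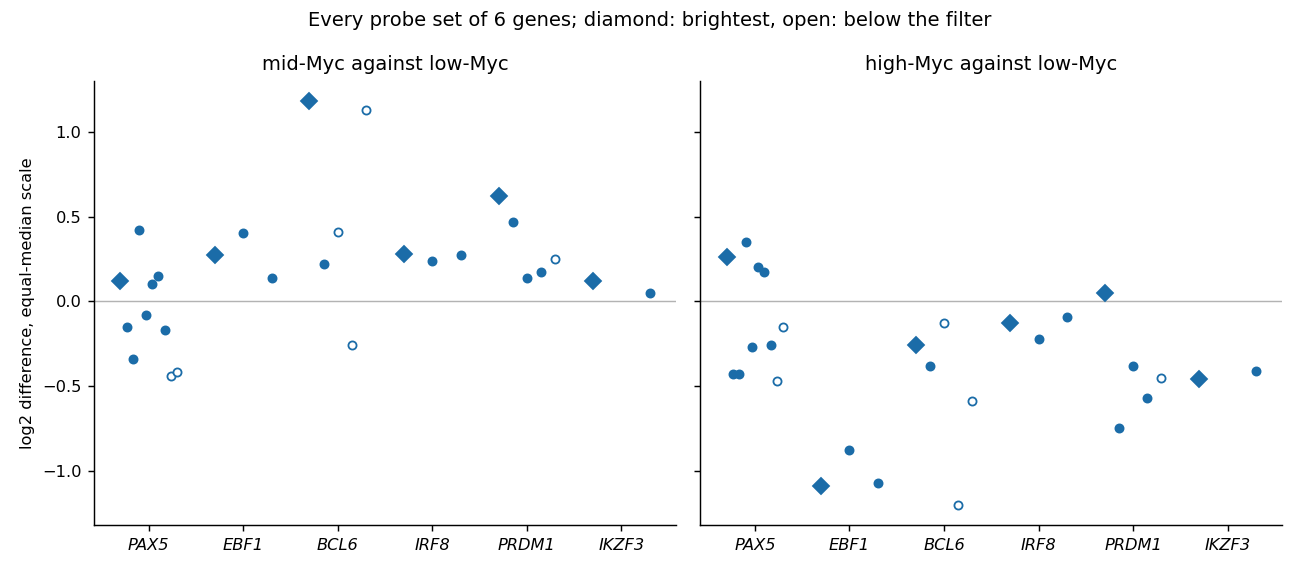
Log2 difference at equal median (vertical axis) of every probe set of the 6 genes that have at least 1 other probe set above the filter; diamonds are the brightest probe set, circles the others, and open circles lie below the filter. The probe sets of PAX5 lie on both sides of 0, those of EBF1 lie together, and the brightest PRDM1 probe set lies above its others at 24 h.

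Ratios within an array do not depend on a single scaling factor, so the balance within pairs of these factors, not all of them opposing, was set out directly. PRDM1 over BCL6 differed by -0.57 log2 units at 1 h and by 0.31 at 24 h against 0 h. PRDM1 over BACH2 was higher by 0.49 at 1 h and by 1.08 at 24 h. EBF1 over PAX5 was lower (log2 -1.35) at 24 h, and IRF4 over EBF1 was higher by 0.98. In all of these ratios the 2 groups did not overlap, with an exact permutation p of 0.333, the smallest possible. IRF4 over IRF8 was higher by 0.47 at 1 h and returned to 0.03 at 24 h, where the arrays overlapped (exact permutation p = 1). PRDM1 over PAX5 was higher by 0.49 at 1 h but differed by -0.21 at 24 h, where the arrays overlapped (exact permutation p = 0.667). Each ratio rests on the brightest probe set, which for PRDM1 and PAX5 differed from other probe sets of the gene at 24 h. For BCL6 it differed at 1 h: its second brightest probe set gave 0.22, below the 0.62 of PRDM1, so the direction of PRDM1 over BCL6 at 1 h depends on the BCL6 probe set. At 24 h that direction depends on the PRDM1 probe set, as the second brightest gave -0.75, below the -0.26 of BCL6.

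Genes known to act with or under these factors were then described from lists that were chosen with earlier results of these data known. Their counts are therefore not independent of these data. Of 12 tested targets of PAX5 and EBF1, 10 were called lower and 1 higher at 24 h against 0 h at equal median, beside 26.0% lower and 37.7% higher over all tested genes. Their median was -0.98, against 0.05 for all tested genes. At 1 h 7 were called higher and 0 lower (median 0.26), where 25.7% of all tested genes were called higher. VPREB1, a surrogate light chain gene, was lower (log2 -2.52, SE 0.093, adjusted p = 3.9e-11) and so was CD72, a B cell coreceptor (log2 -2.16, adjusted p = 6.49e-13). CD79B, the signalling chain of the B cell receptor, was lower (log2 -1.50), but 0 of its 2 other probe sets above the filter went that way. LEF1, a factor of the Wnt pathway and the single target called higher, differed by 2.43. Per cell the list had 6 higher and 4 lower (median 0.14 beside 0.98), where 91.0% of all tested genes were called higher and 2.47% lower.

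Germinal centre genes were called lower in 9 of 9 tested at 24 h at equal median (median -0.68), beside 26.0% of all tested genes. Among them were LMO2 (-1.67), MYBL1 (-1.47), MME, which encodes CD10 (-1.03), and BCL7A (-0.74). RGS13 and SERPINA9 of this list lay below the filter and were not tested, and CD38 is also in the plasma cell list. Per cell 6 of the 9 were called higher and 2 lower, beside 91.0% and 2.47% of all tested genes, and BCL7A was higher by 0.40. At 1 h 2 of the 9 were called higher, a share near the 25.7% of all tested genes, and 1 was called lower, beside 3.39%. S1PR2, the receptor that confines cells to the germinal centre, was higher by 0.36. GCSAM, at -0.26, did not pass (adjusted p = 0.0747).

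Of 13 plasma cell genes, 8 were called higher and 3 lower at 24 h at equal median (median 0.55), beside 37.7% and 26.0% of all tested genes. Per cell all 13 were called higher (median 1.62), where 91.0% of all tested genes were. FKBP11, a folding enzyme of the secretory pathway, was higher by 2.31 (SE 0.085, adjusted p = 3.4e-11), PRDX4, a peroxiredoxin of the endoplasmic reticulum, by 2.21, MZB1 by 0.86 and SEC11C by 0.81. These 4 genes act in protein folding and secretion. The 3 called lower were CD38 (-0.5), JCHAIN (-0.38) and TNFRSF17 (-0.2), and SDC1 and SLAMF7 were not called. SDC1, which encodes the plasma cell surface marker CD138, had a mean intensity of 38.5 at 0 h, 36.9 at 1 h and 39.8 at 24 h, close to the filter, and JCHAIN, the joining chain of secreted antibodies, one of 5066, 5396 and 3530. At 1 h 7 of 13 were called higher and 1 lower (median 0.23), beside 25.7% and 3.39% of all tested genes, with SSR4 at 0.42 and PRDX4 at 0.36.

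Of 11 genes that BCL6 is known to repress, 4 were called higher and 4 lower at 24 h at equal median (median 0.00), shares near the 37.7% and 26.0% of all tested genes. CD69, an activation marker, was lower (log2 -4.66, SE 0.078, adjusted p = 7.1e-14), and CHEK1 and ATR, which signal DNA damage, were higher by 1.54 and 0.76. At 1 h 3 were called higher and 0 lower, a share near the 25.7% of all tested genes called higher, with CDKN1B, a cell cycle inhibitor, at 0.58 and ID2, an inhibitor of helix-loop-helix factors, at 0.36.

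Of 24 other B lineage regulators, 6 were called higher and 16 lower at 24 h at equal median (median -0.36), beside 37.7% and 26.0% of all tested genes. Per cell 20 were called higher and 2 lower (median 0.78), beside 91.0% and 2.47%. LEF1, which is also in the list of PAX5 and EBF1 targets, had the largest difference and was higher by 2.43. HHEX was lower (log2 -1.59), and so were ID2 (-1.27), which is also in the list of genes repressed by BCL6, and MEF2C (-1.04). At 1 h 7 were called higher and 1 lower (median 0.13), near the 25.7% and 3.39% of all tested genes, led by BACH1, a close relative of BACH2, at 1.36 (SE 0.081, adjusted p = 1.53e-07) and HHEX at 0.75. BACH1 and BACH2 had differences of 1.36 and 0.13 at the same time, and the difference between them was not tested.

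**Figure D4:**
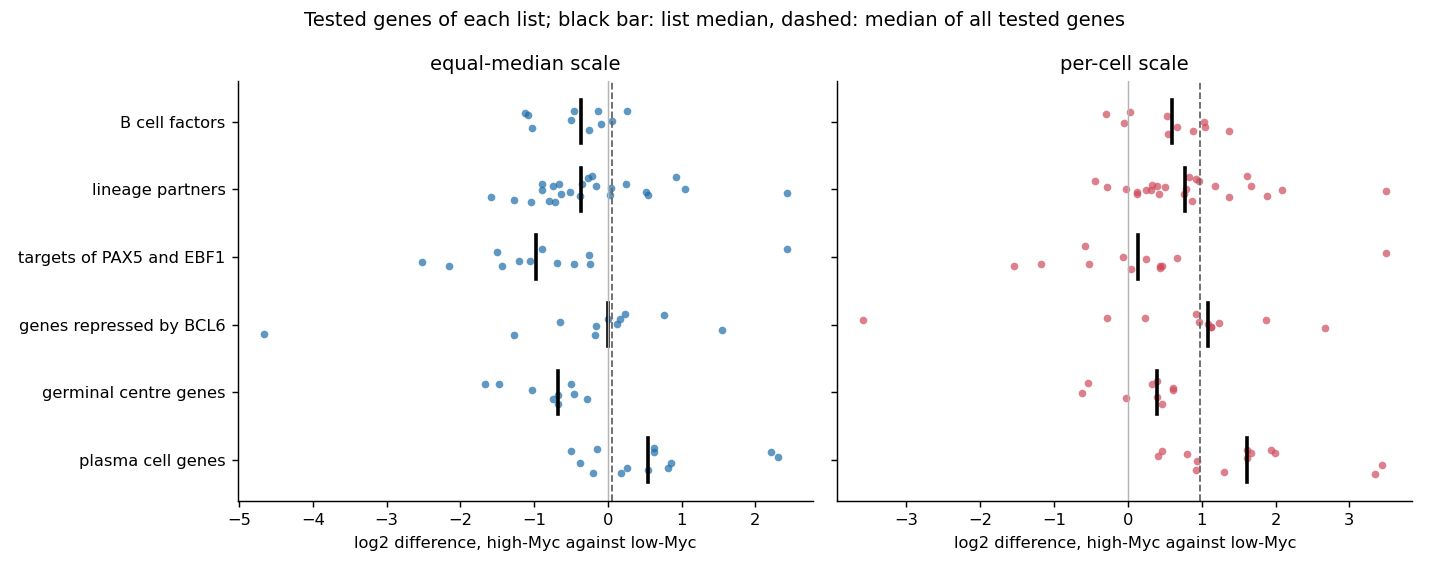
Log2 difference in high-Myc against low-Myc cells (horizontal axis) of the tested genes of each list on both scales; each point is a gene, the black bar is the list's median and the dashed line the median of all tested genes. The medians of the germinal centre genes and of the targets of PAX5 and EBF1 lie below the dashed line, and that of the plasma cell genes above it.

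Cell type markers were summed next, but their lists share genes with those above. CD79A, CD79B, CD22 and BLK are both B cell markers and targets of PAX5 and EBF1. The plasma cell markers are the same 13 plasma cell genes. All 7 B cell markers analysed were above the filter, and their summed deposited intensity was 24600 to 25020 in low-Myc, 25850 to 26500 in mid-Myc and 15290 to 15450 in high-Myc arrays. All 7 were called higher at 1 h and lower at 24 h at equal median (medians 0.30 and -0.89), where 25.7% of all tested genes were called higher and 26.0% lower. Per cell at 24 h 4 were called higher and 2 lower (median 0.25), beside 91.0% and 2.47%. Plasma cell markers summed to 9209 to 9307, 9874 to 9940 and 10550 to 10840. Within this sum the mean of PRDX4 went from 360.3 at 0 h to 1519 at 24 h and that of FKBP11 from 191 to 855.4. JCHAIN, the largest term, went from 5066 to 3530, and TNFRSF17, CD38 and SLAMF7 were lower too. T and NK cell markers (7 of 13 above the filter) summed to 600.6 to 614.5, 515.1 to 543.3 and 457.1 to 465.2. Monocyte and granulocyte markers (6 of 12 above the filter) summed to 4914 to 4946, 4767 to 4814 and 1508 to 1537. This last sum was carried by ITGAM, with a mean of 2016 at 0 h and 369.7 at 24 h, LYZ and MS4A7, while CD14, S100A8, S100A9, FCGR1A, VCAN and MPO lay below the filter. The ratio of 3′ to 5′ ACTB signal, a sign of RNA integrity, was 2.81 at 0 h, 2.97 at 1 h and 3.56 at 24 h, and that of GAPDH was 1.17, 1.23 and 1.18. The part of these shifts in the results on the 10 genes was not tested.

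Finally, the genes with the most similar course over the 6 arrays were listed for the member with the largest rise and the one with the largest fall at 24 h against 0 h at equal median. Likeness was the root mean square difference of log2 values centred on each gene's mean. For PAX5 these were AGAP4 (0.033), KDM8 (0.038) and ACTL7B (0.043), of which ACTL7B had a mean intensity of 35.9, near the filter. For POU2AF1 they were PLEKHM1 (0.022), SYNPO (0.025) and OAS1 (0.025), with 24 h differences of -1.18, -1.11 and -1.17.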

How the data were processed

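Total RNA of 6 samples was measured on 1-colour Affymetrix arrays, 2 in each of 3 groups. The deposited values are linear probe set intensities. The submitters' processing notes name MAS5 (version and scaling target: not given in the sources used here). Of 49495 probe sets analysed, the kinds were 49293 human, 100 ERCC and 102 other controls. Gene symbols came from the platform annotation, and 45278 human probe sets had 1 symbol.

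Intensities were taken to log2. The per-cell scale subtracted, for each array, a robust loess curve (span 0.7, degree 1) of its ERCC values on the mean ERCC value over the arrays. Genes were tested if their brightest probe set had a mean above the 40th percentile of human probe sets (33.8). limma 3.58.1 in R 4.3.3 fitted the 3 group means with a variance trend, and p-values were two-sided and adjusted by Benjamini-Hochberg over 12198 genes. The procedure was tested on simulated data. Arrays give no read depth, and their number limits the precision.

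All 10 genes are named, with up to 4 genes of each other list at 24 h and up to 2 at 1 h, those with the largest absolute difference at equal median. Beyond this rule, SDC1, JCHAIN, CD38, TNFRSF17, SLAMF7, RGS13, SERPINA9 and single marker genes were named after their values were seen. The members and lists were chosen with earlier results of these data known. A nearest-pattern list was made for 2 members. Alternatives were other scalings, filters, a pseudocount, a fit with no variance trend, other probe sets, a replicate block, fits of 2 groups and leaving out each array. Same-numbered arrays did not deviate together, so the numbers were not used as pairs.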

Additional observations from a re-analysis of the deposited data

How the results depend on the processing

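Of the 6 counts of called genes among the 10 factors, 4 stayed within 1.5 times under every alternative. The 7 called at 1 h at equal median became 4 with no variance trend, 3 after quantile normalisation, 4 when arrays were centred on the tested genes and 3 in the deposited values. The 10 called at 1 h per cell became 6 with the second brightest probe set, which was tested for 8 genes. The fit with the replicate block gave 6, 7 and 9 calls at equal median (24 h against 0 h, 1 h against 0 h, 24 h against 1 h) and 8, 10 and 8 per cell, the counts of the fit without it, and changed no count. Same-numbered arrays had correlations of deviations of 0.002, -0.003 and -0.002.

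Of 936 values of single genes under an alternative, 845 kept direction and side of the threshold, 43 were no longer past it, 16 were newly past it and 32 turned in sign. The cause of each was not tested. Some of these settings could not move a value, as described for single genes above. At 24 h against 0 h and equal median, PAX5 became -0.103 with the mean of its probe sets and -0.425 with the second brightest. PRDM1 became -0.419 and -0.75 with these, -0.055 after quantile normalisation, -0.155 with arrays centred on the tested genes, -0.09 in the deposited values, and ran from -0.016 to 0.114 with 1 array left out. At 1 h against 0 h and equal median, PAX5 became -0.081 with the mean of its probe sets, -0.152 with the second brightest, -0.063 after quantile normalisation and -0.029 as deposited, and ran from -0.015 to 0.256 with 1 array left out. POU2AF1 became -0.08 after quantile normalisation, IKZF3 -0.025 after quantile normalisation and -0.025 as deposited, and BACH2 -0.02 as deposited. At 24 h against 1 h and equal median, PAX5 became -0.023 and -0.273 with the mean and the second brightest probe set.

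Per cell at 24 h against 0 h, BACH2 became 0.041 with the mean of its probe sets, and EBF1 became -0.4 with 1 ERCC factor per array and ran from -0.014 to 0.068 with 1 array left out. Per cell at 24 h against 1 h, SPIB became -0.007 with a pseudocount of 16 and -0.222 with 1 factor, and ran from -0.095 to 0.132 with 1 array left out. IRF4 became -0.166 with the mean of its probe sets and -0.289 with 1 factor. PRDM1 became -0.18 with the mean, -0.493 with the second brightest and -0.005 with 1 factor, and IKZF3 became -0.023 with 1 factor. Where 1 array was left out, the lone array of its group was assumed to vary like the other groups.

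The lowest BCL6 values lay near the filter of 33.8, and 7 of 23 background probe sets lay above it, so dim genes are the least certain. The ERCC probe sets nearest in brightness to the 10 factors kept medians of -0.10 to -0.17 at 24 h against 0 h after the curve was subtracted, so per-cell differences of that size are not resolved. Single ones nearest to EBF1 and PAX5 ran from -0.2 to 0.75. Larger per-cell differences also depended on the curve. With 1 ERCC factor per array EBF1 went from 0.03 to -0.4, SPIB from 0.54 to 0.19 and BACH2 from -0.05 to -0.35.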
